A study of Trametes cinnabarina with 17 samples.

Results

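Wheat straw was compared with maltose in mycelium of the white-rot fungus *Pycnoporus cinnabarinus* strain CIRM-BRFM 137 by RNA-seq. The libraries were taken by the label of their culture medium, 3 from wheat straw and 3 from maltose, that is 6 of the 17 libraries of the series. All were liquid shaken cultures harvested on day 3. According to the labels, maltose was present at 20 g/l in the maltose cultures, while the straw cultures received 2.5 g/l maltose together with 15 g/l of ground straw. The study's text calls each substrate the only carbon source, and this difference was not resolved. The straw and the lower maltose concentration therefore cannot be told apart in the comparison with maltose. The other 11 libraries come from Avicel (2 libraries), aspen wood, pine wood and xylan-galactomannan, in which these hemicelluloses were mixed (3 each). These media are labelled with the same 2.5 g/l maltose and 15 g/l of substrate as the straw medium, so they were used for direct comparisons with wheat straw. The same strain was used throughout, and cultures of 1 strain do not show how other strains respond.

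White-rot fungi break down all the polymers of plant cell walls. Cellulose is attacked by hydrolases and by lytic polysaccharide monooxygenases, often carrying a module that binds cellulose, and the released sugars are taken up by membrane transporters. Hemicelluloses and pectin need many glycoside hydrolase (GH) families, each for a kind of linkage, and lignin is modified by secreted oxidases such as laccases. Cereal straw is rich in xylan and holds little pectin. The maltose cultures were the control.

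Total counts per library ranged from 14818467 to 15950092 on wheat straw and from 13817859 to 14848831 on maltose. No replicate pair agreed within sampling noise, and wheat straw 1 stood further from the other straw libraries than these did from each other. Log2 differences between libraries had an SD over genes of 0.27 and 0.29 for the pairs with wheat straw 1 and 0.18 for wheat straw 2 and 3. Among the maltose libraries it was 0.22, 0.27 and 0.29. Levels are given as normalized read counts, that is counts divided by the size factor of the library, so levels of different genes are not scaled for gene length. In bulk mycelium fewer or more cells of a type and less or more RNA per cell cannot be told apart.

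Which genes respond to wheat straw was asked first. Of 9162 genes tested with the edgeR quasi-likelihood model, 1435 (15.7%) were called changed. Calls required a Benjamini-Hochberg adjusted p under 0.05 together with a change of more than 1 on the log2 scale. Transcripts of 873 genes (9.53%) were higher on wheat straw and those of 562 genes (6.13%) were lower. The predominance of higher genes belonged to the fold threshold: at an adjusted p under 0.05 alone, 2066 genes (22.5%) were higher and 2397 (26.2%) lower. The median log2 fold change of all genes tested was -0.05. The libraries of both media did not overlap in 870 of the 873 higher genes and in 557 of the 562 lower genes. Over all genes tested, 33.3% did not overlap with straw above maltose and 34.9% with straw below.

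Rises were larger than falls at the far end of the range. Among the higher genes, 563 had a log2 fold change between 1 and 2, 156 between 2 and 3, 102 between 3 and 5, and 52 above 5. Among the lower genes the corresponding numbers were 407, 94, 46 and 15. The median log2 fold change was 1.64 for the higher genes, with an interquartile range of 1.25 to 2.46. For the lower genes it was -1.48, with an interquartile range of -2.06 to -1.18. The median standard error of a called fold change was 0.20 in either direction. The plot of the size of change shows the longer tail of the higher genes.

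**Figure D1:**
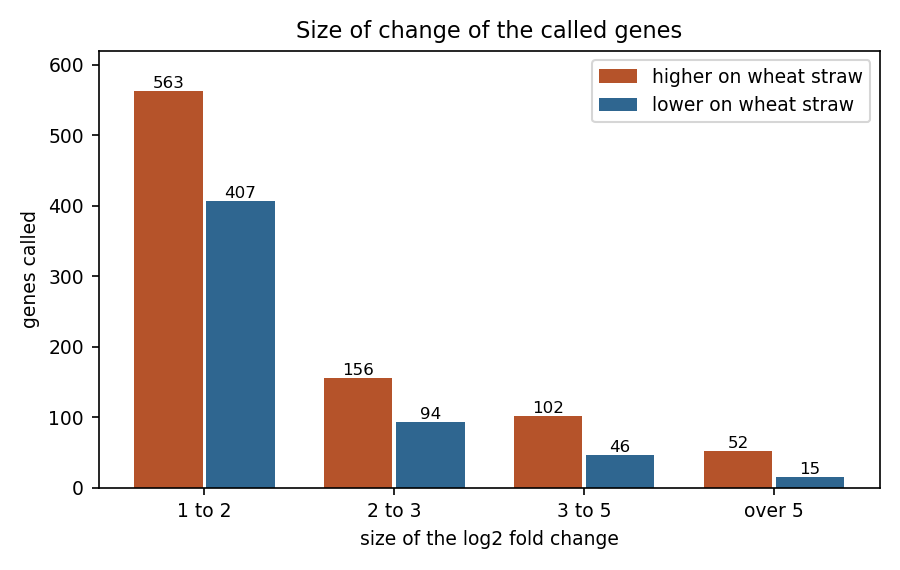
Bars give the number of genes called higher and lower on wheat straw than on maltose (vertical axis) by the size of their log2 fold change (horizontal axis). Above 5 there were 52 higher and 15 lower genes, whereas between 1 and 2 there were 563 and 407.

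The higher genes lay below the median of all genes on maltose and above it on wheat straw, and the lower genes the reverse. This follows in part from choosing them on the difference between these media. On the scale of log2(normalized count + 1), the median level of the 873 higher genes was 8.13 on maltose and 10.26 on wheat straw. For the 562 lower genes it was 9.45 on maltose and 7.88 on wheat straw, while the medians of all genes tested were 9.21 and 9.27. Calls were found in each quartile of level. When genes were divided into quartiles by their mean level over the 6 libraries, between 8.38% and 10.4% of each quartile were called higher. The lower genes made up 9.12%, 5.20%, 4.19% and 6.02%, from the lowest to the highest quartile. The median size of a rise lay between 1.55 and 1.78 in the 4 quartiles and that of a fall between -1.56 and -1.32.

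**Figure D2:**
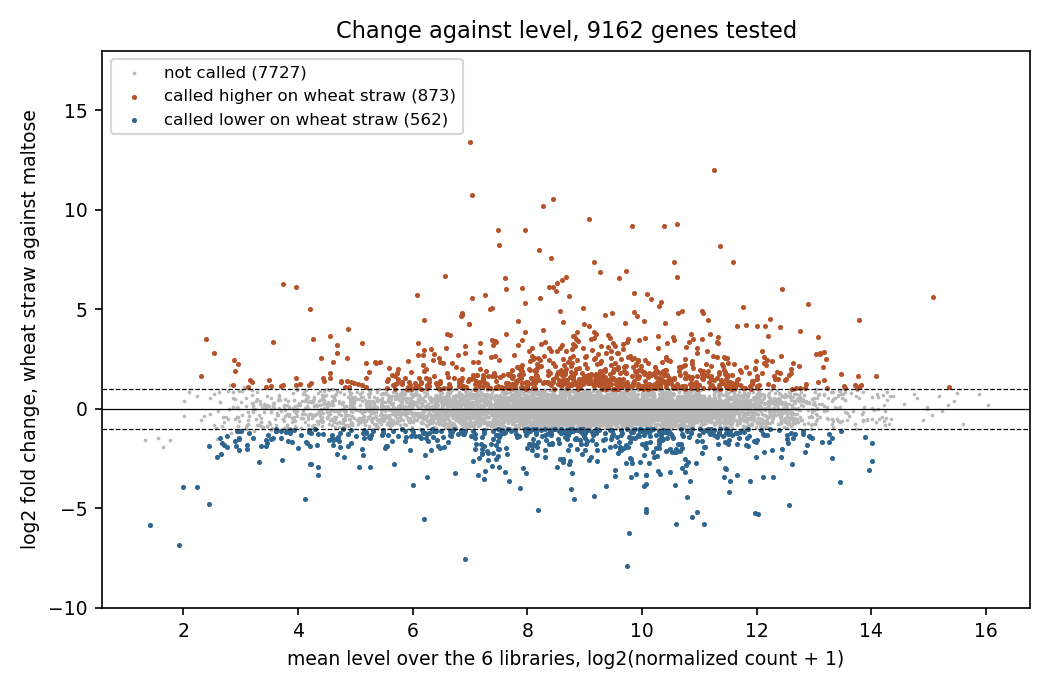
Each point is 1 of 9162 genes, placed by its mean level over the 3 wheat straw and 3 maltose libraries (horizontal axis, log2 of the normalized count + 1) and its log2 fold change on wheat straw against maltose (vertical axis). Dashed lines mark log2 fold changes of 1 and -1, and the 873 higher and 562 lower genes occur across most of the range of levels.

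The higher genes took a large part of the transcript pool. Their share of all counts was 22.2%, 24.6% and 25.9% in wheat straw 1, 2 and 3 and 5.28%, 5.27% and 5.33% in maltose 1, 2 and 3. Means were 24.2 ± 1.84% and 5.29 ± 0.0342% (SD, n = 3 each). The lower genes took 3.10%, 2.74% and 2.64% on wheat straw, compared with 12.8%, 12.4% and 12.9% on maltose. Wheat straw 1 had the smallest share for the higher genes and the largest for the lower genes, so it was the straw library nearest to maltose. It was the lowest straw library in 505 of the 873 higher genes and the highest in 327 of the 562 lower genes, against 3583 and 3660 of the 9162 genes tested. Without wheat straw 1 the calls numbered 868 higher and 581 lower. On the other media the 873 genes took 25.1 ± 3.76% of counts on Avicel (SD, n = 2), 22.9 ± 0.863% on aspen, 19.3 ± 0.801% on pine and 10.2 ± 0.456% on xylan-galactomannan (SD, n = 3 each). The 562 genes took 6.40%, 4.98%, 4.90% and 9.93% of counts there.

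**Figure D3:**
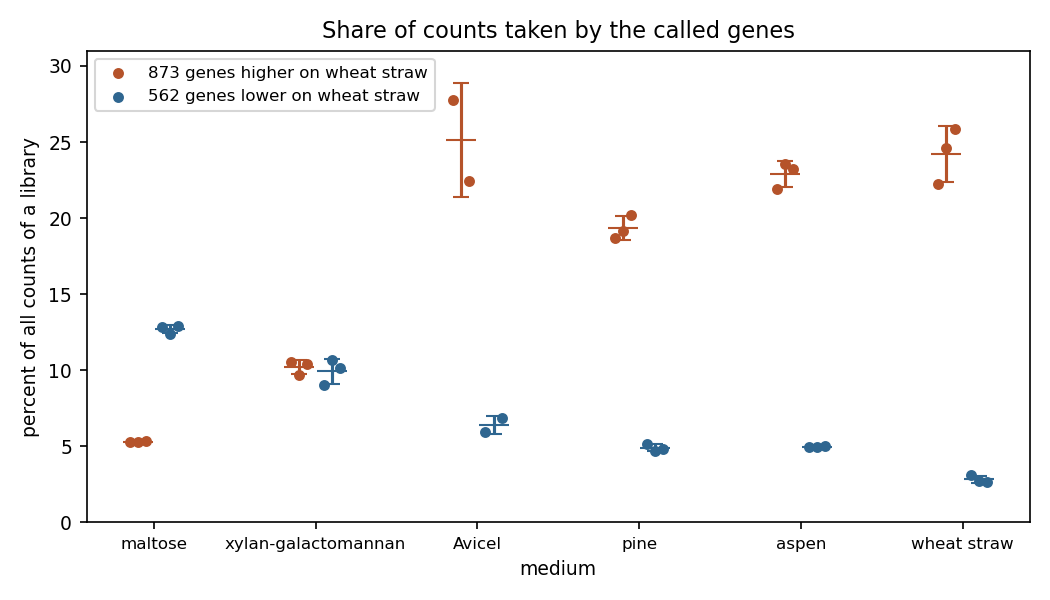
Points are libraries, bars are the mean ± SD of each medium, and the vertical axis is the percentage of a library's counts taken by the 873 genes higher and the 562 genes lower on wheat straw than on maltose. The sets were chosen on the maltose and wheat straw libraries, where the shares were 5.29% and 24.2% for the higher genes and 12.7% and 2.83% for the lower genes.

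The same genes were followed gene by gene on the other media, as differences of mean log2(normalized count + 1) from the maltose libraries, which all these differences share. For the higher genes the median difference was 1.66 on wheat straw, 1.78 on aspen, 1.74 on pine, 0.80 on xylan-galactomannan and 0.64 on Avicel. For the lower genes it was -1.44 on wheat straw, -1.23 on aspen, -1.21 on pine, -0.66 on Avicel and -0.41 on xylan-galactomannan. The straw values are those on which the genes were chosen. Tested directly over all genes, wheat straw was higher in 749 genes and lower in 655 than Avicel (8.18% and 7.15%). The corresponding numbers were 711 and 686 against xylan-galactomannan (7.76% and 7.49%), 313 and 395 against aspen (3.42% and 4.31%), and 243 and 475 against pine (2.65% and 5.18%).

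Genes with a mean above 12 on the log2 scale, about 4096 normalized counts, were considered highly transcribed. There were 611 such genes on wheat straw and 527 on maltose, of which 369 were above this level on both. In total 162 genes were called higher and passed the level on wheat straw and not on maltose, and 80 genes were called lower and passed it on maltose and not on wheat straw. The 162 genes took 13.6 ± 1.41% of counts on wheat straw and 2.00 ± 0.0486% on maltose, and the 80 genes took 1.04 ± 0.138% and 6.37 ± 0.167% (SD, n = 3 each). Of the 100 genes with the highest normalized counts on wheat straw, 45 were called higher and 0 lower. Of the corresponding 100 genes on maltose, 32 were called lower and 1 higher, and 42 genes were in both sets. Genes near silence were few: 4 called genes had under 10 normalized counts in every maltose library and over 100 in every straw library, and the reverse held for 0 genes.

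The study's tables give predicted functions or secretion for part of 176 genes, all of which were tested here. The study picked these genes on libraries that include the present ones, from those raised on plant substrates or grouped with secreted proteins. Its selection on plant substrates asked for gene clusters of high transcription there and not on maltose or Avicel. Differences of the selected genes from Avicel are thus partly built in. For genes selected on aspen or pine only, so are differences from that wood. Counts of higher members are therefore a description and not independent evidence of direction. In all, 122 of the 176 genes were called higher and 0 lower, against 9.53% and 6.13% of all genes tested, with a median log2 fold change of 1.38. All 78 genes that the study selected on wheat straw were called higher, which restates that selection. Of 89 genes selected on aspen or pine only, 35 were called higher, with a median of 0.89. The 176 genes were grouped by function as follows, and they hold nothing on the genes that fell.

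**Figure D4:**
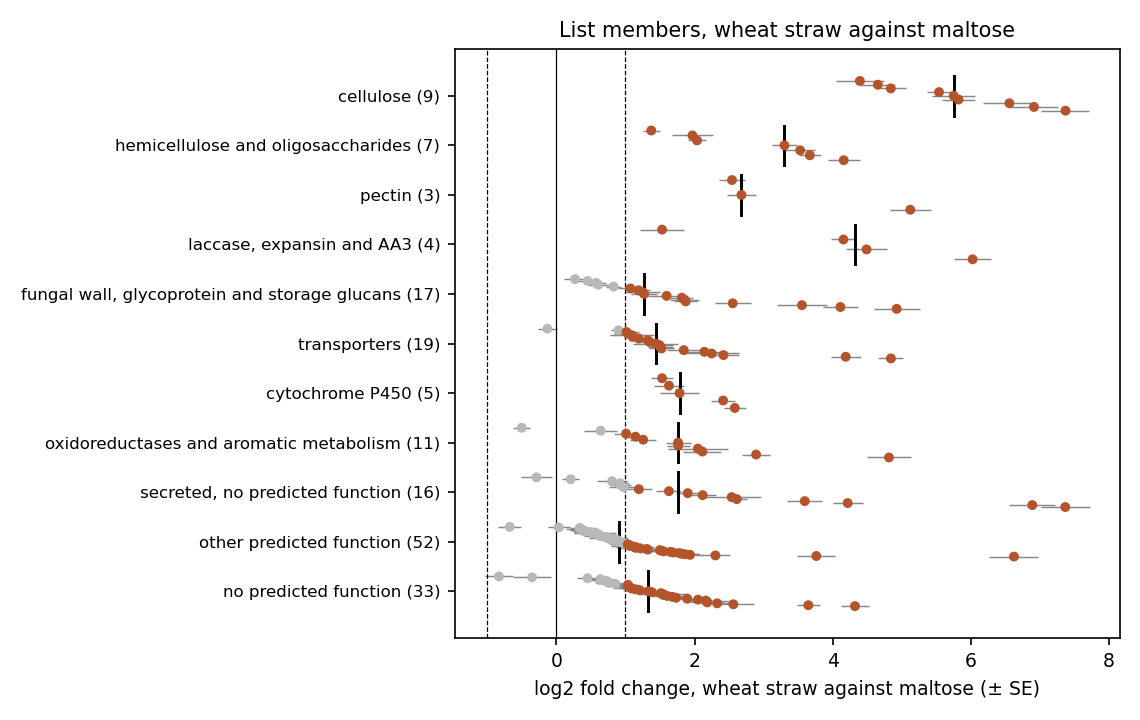
Each point is a gene of the study's tables, placed by its log2 fold change ± SE on wheat straw against maltose (horizontal axis) within its function list (vertical axis, number of members in parentheses). Filled orange points were called higher, grey points were not called, vertical bars are list medians, and the largest medians were 5.75 for cellulose and 4.32 for laccase, expansin and AA3.

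The cellulose list holds 9 genes of a cluster that the study chose for its many secreted proteins, and not every member is known to act on cellulose. The study formed its clusters by similar transcription over maltose, Avicel, aspen, pine and wheat straw. How the members stand on these media is therefore partly fixed by membership. All 9 were called higher on wheat straw, with log2 fold changes from 4.39 to 7.37 and a median of 5.75. Their summed share of counts rose from 0.011 ± 0.0011% on maltose to 0.555 ± 0.118% on wheat straw (SD, n = 3 each). On maltose they ranked between 6812 and 8082 of 10442 gene models by mean level, and on wheat straw between 54 and 652.

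The largest rise of this list was that of a predicted carboxypeptidase C, a serine peptidase (protein ID 6605). It had 14320, 19670.1 and 25519 normalized counts in wheat straw 1, 2 and 3, compared with 105, 132 and 115 in maltose 1, 2 and 3. The log2 fold change was 7.37 ± 0.35 (SE, edgeR adjusted p = 1.4e-11). A GH131 glucanase with a cellulose-binding CBM1 module (1365) had 7559.5, 8992 and 11553 on straw and 69.5, 86.6 and 72.0 on maltose. The CBM1-GH5_5 endoglucanase 1929, which would cut within cellulose chains, had 5027, 8329.8 and 10082 against 68.7, 100.0 and 74.6. Wheat straw 1 was the lowest straw library in all of these 3 genes, and no straw library came near a maltose library. A predicted mutarotase (3419), which interconverts anomers of sugars, was even among the maltose libraries, at 123, 122 and 121, and reached 6284, 6693 and 8185 on straw. The log2 fold changes were 6.91 ± 0.36 for 1365, 6.56 ± 0.39 for 1929 and 5.82 ± 0.24 for 3419 (SE, edgeR adjusted p = 3.3e-11, 2e-10 and 3.2e-12).

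The other 5 members, 6394, the GH1 gene 4378, the AA9-CBM1 lytic polysaccharide monooxygenase 5579, the CBM1-GH5_5 gene 8616 and the GH7 gene 5845, rose by 5.75, 5.54, 4.84, 4.65 and 4.39. GH1 holds mainly beta-glucosidases, which release glucose from cellobiose, and GH7 holds cellobiohydrolases and endoglucanases. Against Avicel, a crystalline cellulose, wheat straw was lower in 8 of the 9 genes (7.15% of all genes) and higher in 0, with a median log2 fold change of -2.81. The GH7 gene had the largest such difference, -5.09 ± 0.36 (SE, edgeR adjusted p = 5.9e-09). Carboxypeptidase C was the exception, with 11005 ± 3401 on Avicel (SD, n = 2) and a difference of 0.85 ± 0.30, under the threshold (SE, edgeR adjusted p = 0.028). Without wheat straw 1 this value was 1.04 and past the threshold. Wheat straw was higher than aspen in 8 of the 9 genes, than pine in 9 and than xylan-galactomannan in 9, with medians of 2.79, 2.70 and 4.48. Over all genes 3.42%, 2.65% and 7.76% were higher in these comparisons, and the medians of all genes against the 4 media lay between -0.02 and 0.01. Avicel, aspen and pine were among the media that formed the cluster, so the shared direction of its members there is a description.

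The hemicellulose and oligosaccharide list holds 7 genes of GH families that remove side chains or cleave oligosaccharides. All 7 were called higher, with a median log2 fold change of 3.30 (range 1.37 to 4.16). A GH35 gene, predicted as a beta-galactosidase that removes terminal galactose (7004), was at 1061, 1066 and 1066 normalized counts in the maltose libraries and at 17586, 19166 and 21459 in the straw libraries. Its log2 fold change was 4.16 ± 0.23 (SE, edgeR adjusted p = 9e-11). A GH2 gene predicted as a beta-mannosidase, acting on the ends of mannan fragments (1092), went from 316, 357 and 360.1 on maltose to 4216, 4525 and 4664 on straw. A GH3 gene predicted as a beta-glucosidase (4566) had 673, 501 and 697 on maltose and 6344, 8059.9 and 7610.4 on straw. The GH31 gene 9738, of the alpha-glucosidase family, had 819, 811 and 791 on maltose and 7004, 8553 and 8792 on straw. Wheat straw 1 was the lowest straw library in all 7 genes of the list. The log2 fold changes were 3.67 ± 0.16 for the GH2, 3.53 ± 0.22 for the GH3 and 3.30 ± 0.18 for the GH31 gene (SE, edgeR adjusted p = 5.2e-12, 4.2e-10 and 5.6e-11). The GH27 alpha-galactosidase (7245), the GH95 alpha-fucosidase (929) and the GH79 glucuronidase (2526) rose by 2.04, 1.97 and 1.37.

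Compared directly with other media, 6 of these 7 genes were higher on wheat straw than on Avicel (8.18% of all genes), with a median of 3.32. The study's selection left out clusters high on Avicel, so this difference is partly built in. Also 6 were higher than on xylan-galactomannan (7.76% of all genes), with a median of 1.87. Against each wood 1 of the 7 genes was called. The GH3 gene was higher than on aspen (1.52 ± 0.20, SE, edgeR adjusted p = 2.1e-05), against 3.42% of all genes. The GH31 gene lay just under the threshold there (0.99) and was called without wheat straw 1 (1.09). The GH95 gene was lower than on pine (-1.14), against 5.18% of all genes, a call lost without wheat straw 1 (-0.96). With so few members these counts say little. The medians of the list were 0.09 against aspen and 0.02 against pine. For the GH2 gene the difference from aspen was 0.09 ± 0.14 and from pine -0.24 ± 0.14 (SE, edgeR adjusted p = 0.68 and 0.18).

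All 3 genes of the pectin list were called higher on wheat straw. A GH28 gene of the polygalacturonase family (8001), whose products cut the pectin backbone, had 16915, 20376 and 25386 normalized counts on straw and 629.6, 648 and 484 on maltose. This rise of 5.12 ± 0.29 on the log2 scale was the largest among the hemicellulose and pectin genes (SE, edgeR adjusted p = 1.2e-10). The other GH28 gene (3798) had 5688, 6990.2 and 7778 on straw and 1178, 1122 and 1143 on maltose, a change of 2.54 ± 0.18 on the log2 scale (SE, edgeR adjusted p = 2.8e-09). The GH88 gene 8220, of a family that removes unsaturated uronic acids from pectin fragments, had 5237, 6795 and 6588 on straw and 1009, 956 and 884 on maltose, a change of 2.68 ± 0.21 (SE, edgeR adjusted p = 5.5e-09). Wheat straw 1 was again the lowest straw library in each. None of the 3 was called between wheat straw and either wood, where the fold changes of 8001 were 0.16 ± 0.24 (aspen) and 0.09 ± 0.24 (pine). Of all genes 3.42% were higher and 4.31% lower on straw than on aspen, and 2.65% and 5.18% than on pine. With 3 members and such shares, the absence of calls says little. All 3 were higher on wheat straw than on Avicel (8.18% of all genes), where the study's selection left out clusters of high transcription.

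Oxidases and an expansin-like gene formed a list of 4, all called higher, with a median of 4.32. The expansin-like gene (10401) belongs to proteins thought to loosen cell walls without hydrolysis. It had 37882, 53317 and 45750.1 normalized counts on straw, rank 12 of all genes there, and 638, 606 and 818 on maltose, where it ranked 4115. Its log2 fold change was 6.02 ± 0.27 (SE, edgeR adjusted p = 7.4e-12). It was also higher on straw than on Avicel (4.57), xylan-galactomannan (2.66) and aspen (1.71 ± 0.22, SE, edgeR adjusted p = 1.3e-05). The difference from pine was 0.60 ± 0.21, short of the fold threshold (SE, edgeR adjusted p = 0.034).

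The pair of AA1_1 laccases, copper oxidases that act on phenols, both rose on straw and stood differently to the woods. Laccase 3446 had 20053, 16955 and 16144 normalized counts in the straw libraries and 1029.8, 1053 and 839 in the maltose libraries, and laccase 8672 had 11444, 12471 and 9039 against 395, 595 and 447. Log2 fold changes against maltose were 4.16 ± 0.17 and 4.49 ± 0.30 (SE, edgeR adjusted p = 4.2e-12 and 8.9e-10). Directly against aspen, 3446 was higher on straw by 1.83 ± 0.16 and 8672 was lower by -2.71 ± 0.27 (SE, edgeR adjusted p = 1.4e-07 and 8.5e-07). Against pine 3446 was higher on straw by 2.74 ± 0.16, and the value for 8672 was 0.71 ± 0.26 (SE, edgeR adjusted p = 8.9e-09 and 0.035). The AA3_2 gene 3421, a flavin oxidoreductase of the GMC family, had 4746, 4538 and 3858 on straw and 1599, 1302 and 1560.2 on maltose. Its log2 fold change was 1.53 ± 0.32 (SE, edgeR adjusted p = 0.00079).

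Genes acting on fungal walls, glycoproteins and storage glucans numbered 17. Of these, 12 were called higher, with a median log2 fold change of 1.27, and the other 5 had values from 0.27 to 0.83. Tested with glmTreat, which asks for a log2 fold change beyond 1, 7 of the 17 were called. GH92 alpha-mannosidases trim mannose from glycoproteins. The GH92 gene 6860 had 11295, 12268 and 11979.7 normalized counts on straw, compared with 395, 377 and 373 on maltose. It rose by 4.93 ± 0.33 (SE, edgeR adjusted p = 1.1e-09). The gene 9620, a chitinase by its code of orthologous groups (KOG), had the highest count of the list, not scaled for gene length. It had 21107, 24411 and 23184 on straw and 1322, 1141 and 1434 on maltose, a rise of 4.11 ± 0.25 (SE, edgeR adjusted p = 3.3e-10). Its enzyme code, EC 3.2.1.3, differs from the 3.2.1.14 of the GH18 genes 2012 and 7817, and it has no CAZyme family, so this role is uncertain. The GH92 genes 6857 and 598 rose as well. For 6857 the straw libraries had 1886, 2744 and 2693 and the maltose libraries 189, 237 and 185. For 598 they had 6238, 7304 and 7459 against 1134, 1042 and 1333. The log2 fold changes were 3.55 ± 0.36 and 2.55 ± 0.26 (SE, edgeR adjusted p = 2.6e-07 and 2.4e-07).

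Smaller rises were found for a predicted GH5 exo-beta-1,3-glucanase (7620, 1.87), a GH13 gene of the alpha-amylase family (3712, 1.81), the GH37 trehalase 6931 (1.27), which splits the storage sugar trehalose, and the GH125 alpha-mannosidase 10255 (1.19). The 3 GH18 chitinase genes 1643, 7817 and 2012 rose by 1.60, 1.25 and 1.07, and the call of 2012 was lost without wheat straw 3 (0.96). Wheat straw 1 was the lowest straw library in 14 of the 17 genes. In the direct comparisons 9620 was higher on straw than on Avicel (4.64 ± 0.31), xylan-galactomannan (4.29 ± 0.26) and aspen (1.54 ± 0.23, SE, edgeR adjusted p = 3.1e-09, 6.8e-10 and 5.9e-05). The difference from pine was 0.88 ± 0.22 (SE, edgeR adjusted p = 0.005). The GH18 gene 1643 was lower on straw than on Avicel (-1.49), aspen (-2.87) and pine (-2.00). The study selected 1643 on aspen only, so its difference from aspen is partly built in.

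Membrane transport was represented by 19 genes, of which 17 were called higher, with a median log2 fold change of 1.44, and 10 with glmTreat. Most are of the major facilitator superfamily, which includes sugar transporters, though the tables do not give their substrates. The member 2165 had 8959.6, 8046 and 8619 normalized counts on straw and 273, 283 and 319 on maltose. It rose by 4.84 ± 0.18 (SE, edgeR adjusted p = 1.3e-12), and 6423, with 13805, 13505 and 14571 on straw and 783, 735 and 734 on maltose, by 4.19 ± 0.22 (SE, edgeR adjusted p = 3.9e-11). The straw libraries of both lay close together. An aquaporin-like channel (7930), of the family that passes water or glycerol, had 3681, 4820.4 and 4789.9 on straw and 723, 679 and 1035 on maltose, a change of 2.42 ± 0.22 (SE, edgeR adjusted p = 4.6e-08). The member 8078 was uneven in either medium, with 8266, 3484 and 3969.6 on straw and 1576, 697 and 969 on maltose. Its log2 fold change was 2.25 ± 0.40 (SE, edgeR adjusted p = 0.00015), and 1.76 without wheat straw 1.

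Other transporters that rose were a second aquaporin-like gene (7058, 2.14), a mitochondrial carrier (3467, 1.84) and an ABC exporter (4353, 1.49). Members 4923, 1305 and 2797 lay near the fold threshold, at 1.03, 1.01 and 1.10. All 3 lost their call without wheat straw 1 (0.98, 0.85 and 0.75), which left 14 of the 19. The call was also lost for 4923 without maltose 2 (0.92), for 1305 without maltose 3 (0.94) and for 2797 without maltose 2 or maltose 3 (0.89 and 0.96). A sugar phosphate antiporter (822) and a phosphate transporter (56) were not called, at 0.90 and -0.13. Against other media wheat straw was higher than Avicel in 8 of the 19 genes and than xylan-galactomannan in 6 (8.18% and 7.76% of all genes). It was higher than aspen or pine in 0 of them (3.42% and 2.65% of all genes) and lower in 2 and 4 (4.31% and 5.18%). With so few members and such shares, 0 higher genes say little.

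Cytochrome P450 enzymes are monooxygenases with many aromatic and lipid substrates, and all 5 in the tables were called higher, with a median of 1.78. The gene 8493 had 6817, 6189 and 5796 normalized counts on straw and 1099, 1079 and 896 on maltose. The gene 2161 had 9161, 9649.8 and 9685 on straw and 1697, 1903 and 1641 on maltose. These were rises of 2.58 ± 0.16 and 2.41 ± 0.17 (SE, edgeR adjusted p = 3.3e-10 and 2.1e-09). Levels were lower for 5611, at 946, 632 and 565 on straw and 219, 210.3 and 179.6 on maltose, and intermediate for 5741, at 4463, 4233 and 3865 on straw and 1435, 1106 and 1437 on maltose. The log2 fold changes were 1.78 ± 0.28 and 1.63 ± 0.22 (SE, edgeR adjusted p = 4.1e-05 and 6.2e-06). In contrast to the comparison with maltose, 5611 was lower on straw than on aspen (-1.60 ± 0.27) and pine (-2.94 ± 0.28), with edgeR adjusted p values of 0.0002 and 6.7e-07. The study selected 5611 on pine and not on wheat straw, so its difference from pine is partly built in.

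Other oxidoreductases and enzymes of aromatic metabolism numbered 11, of which 9 were called higher, with a median of 1.76. A short-chain reductase (104) had 8976, 13096 and 12918 normalized counts on straw and 431, 322 and 467 on maltose. Its rise of 4.81 ± 0.32 was the largest of the list (SE, edgeR adjusted p = 1e-09). On Avicel it had 90.5 ± 69.9 (SD, n = 2), and the direct difference was 7.03 ± 0.44 (SE, edgeR adjusted p = 1.4e-09). It was also called higher on straw than on pine, by 1.08 ± 0.28 (SE, edgeR adjusted p = 0.0051), a call lost without wheat straw 2 (0.99) or wheat straw 3 (1.00). An aldo/keto reductase (3335) had 5518, 6261 and 7041 on straw and 859.7, 649.7 and 978 on maltose. It rose by 2.89 ± 0.21 against maltose but was lower on straw than on xylan-galactomannan, by -1.52 ± 0.20 (SE, edgeR adjusted p = 2.3e-09 and 6.8e-06).

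A flavoprotein monooxygenase (7533) had 3234, 3542 and 3663 on straw and 912, 726 and 726 on maltose, a rise of 2.11 ± 0.27 (SE, edgeR adjusted p = 4.8e-06). The gene 350, annotated as a phenylalanine or histidine ammonia-lyase, which removes the amino group from these amino acids, was low in wheat straw 1. It had 688, 2117 and 2203 on straw and 424, 372 and 391 on maltose, a change of 2.05 ± 0.43 (SE, edgeR adjusted p = 0.00075). A homogentisate dioxygenase (6432), an enzyme of phenylalanine and tyrosine breakdown, rose by 1.26 from a mean of 166 ± 34.2 to 406 ± 76.6 (SD, n = 3 each). The rise of a zinc-binding oxidoreductase (6014) lay at the threshold (1.01) and was not called without maltose 1 (0.99), maltose 3 (0.93) or wheat straw 3 (0.87). An epoxide hydrolase (5280) and an aldo/keto reductase (8358) were not called, with values of 0.64 and -0.50.

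Genes whose products are secreted or carry a signal peptide but have no predicted function numbered 16, and 10 of them were called higher, with a median of 1.77. Protein ID 3445 had 38863, 41261 and 41094 normalized counts on straw, rank 14 of all genes, and 178, 259 and 283 on maltose. It rose by 7.37 ± 0.35 against maltose, by 5.92 ± 0.39 against Avicel and by 2.69 ± 0.28 against pine (SE, edgeR adjusted p = 1.5e-11, 2.8e-09 and 2e-06). The difference of 3445 from aspen was 0.91, short of the fold threshold. Protein ID 3895 had 7657, 6926 and 5884 on straw and only 75.1, 43.3 and 50.3 on maltose, a rise of 6.89 ± 0.33 (SE, edgeR adjusted p = 1.5e-11). For 1391 the straw libraries were at 15538, 15978 and 15721 and the maltose libraries at 687, 849 and 955. For 5077 they were at 4444, 6015 and 5288 and at 420.2, 469 and 387. Their log2 fold changes were 4.22 ± 0.22 and 3.60 ± 0.26 (SE, edgeR adjusted p = 3.2e-11 and 2.2e-09). The other 6 members had values from -0.29 to 0.98 and were not called.

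**Figure D5:**
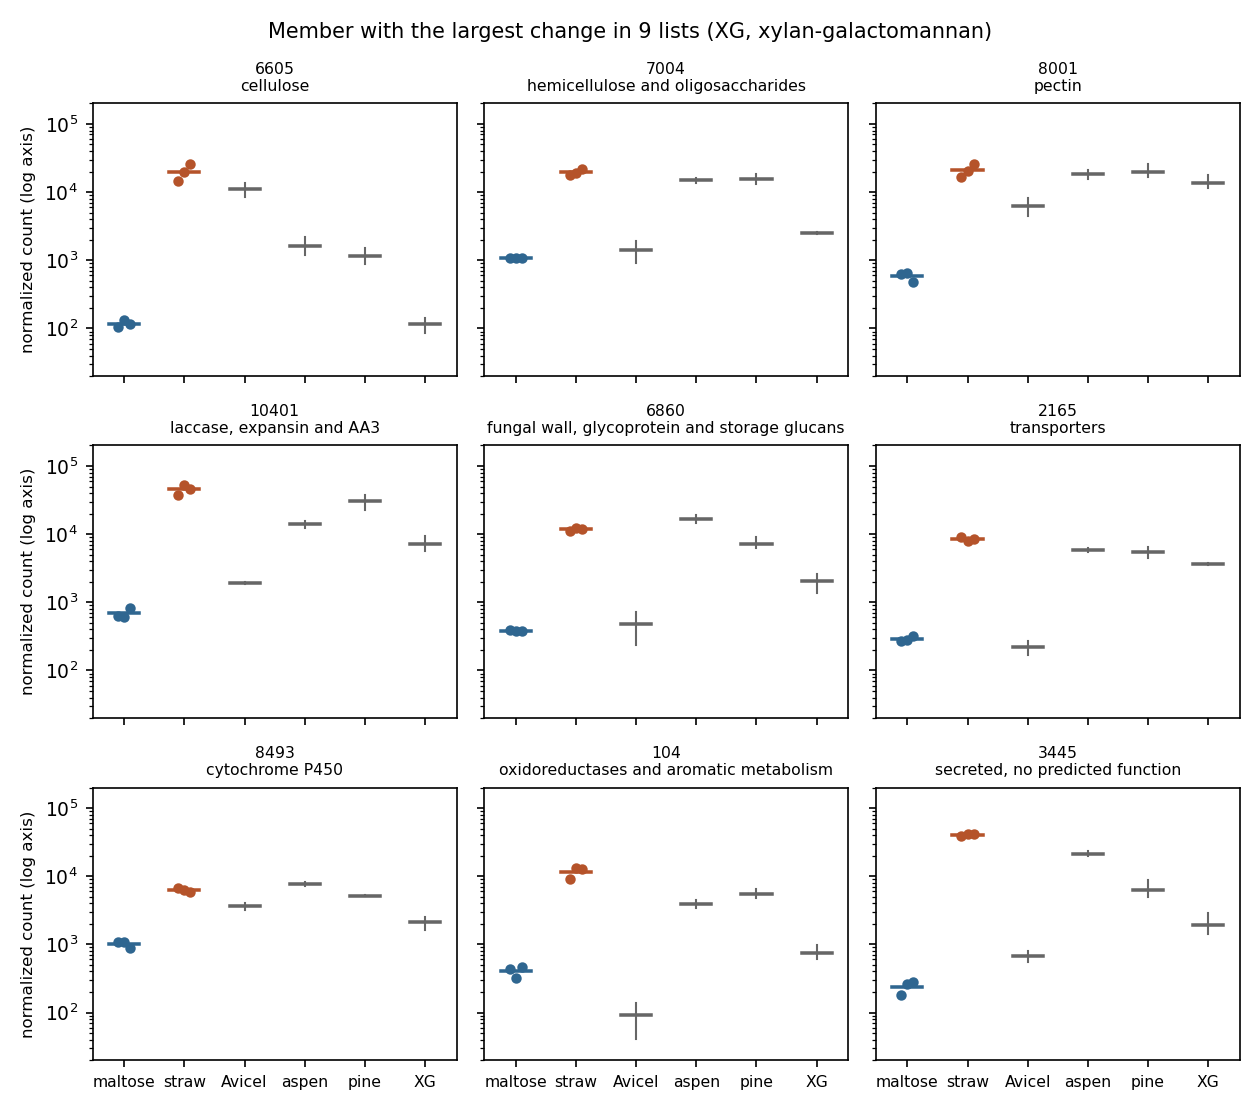
For the member with the largest log2 fold change in each of 9 function lists, normalized counts (vertical log axis) are shown on maltose and wheat straw as 1 point per library with the mean, and on Avicel, aspen, pine and xylan-galactomannan (XG) as the mean with a line from the lowest to the highest library. The straw libraries of carboxypeptidase C 6605 lie at 14320 to 25519 and its maltose libraries at 105 to 132, and no panel has an overlap between these media.

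The remaining annotated genes, 52 with other predicted functions, changed less: 22 were called higher, or 11 with glmTreat, and the median was 0.90. Leaving out 1 library at a time gave between 19 and 24. The 4 largest rises were those of 8079, 5263, 7290 and 4045, for which the tables give codes of orthologous groups. The gene 8079 had 18438, 16079.7 and 14286 normalized counts on straw and 127, 103 and 256 on maltose, a rise of 6.62 ± 0.35 (SE, edgeR adjusted p = 5.4e-11). The gene 5263 had 4112, 8601 and 8504 on straw and 502, 546 and 485 on maltose, with wheat straw 1 apart, and rose by 3.76 ± 0.27 (SE, edgeR adjusted p = 2.9e-09). Smaller rises were those of 7290, from 1355, 1392 and 1146 to 6041, 6812 and 6738 (2.30), and 4045, from 1092, 780.4 and 1302 to 3979.5, 4312 and 4083 (1.93).

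Enzymes of central metabolism stood among these 52. A glycerol kinase (3400), which brings glycerol into glycolysis, rose by 1.81 ± 0.26, from 1996 ± 334 to 7132 ± 501 normalized counts. A xylulokinase (8966), by which xylose carbon enters the pentose phosphate pathway, rose by 1.78 ± 0.20, from 1148 ± 159.8 to 4019 ± 896 (SD, n = 3 each, and SE, edgeR adjusted p = 1.4e-05 and 8.1e-07). An NAD(P) transhydrogenase (3004) and a sulfite oxidase (4803) rose by 1.69 and 1.65. Under the fold threshold lay a fructose-1,6-bisphosphatase (8449) at 0.80 ± 0.14, a citrate synthase (4483) at 0.73 ± 0.15 and a carnitine acetyltransferase (7442) at 0.76 ± 0.28 (SE, edgeR adjusted p = 0.00018, 0.00075 and 0.033). A further 33 genes had no predicted function, and 24 of them were called higher, or 14 with glmTreat, with a median of 1.33. Without 1 library the lowest count was 21.

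Most genes tested are not in the study's tables, and their functions were not analysed here. Among these genes, the largest rise was that of protein ID 5863. It was near silent on maltose, with 0.799, 1.58 and 0 normalized counts, or 3 counts in total, and had 7677, 8929 and 14357 on straw. The ratio of means was 13000, with a 95% exact Poisson interval of 4460 to 63200 that covers the error of the 3 counts only. It was higher still on Avicel, 36418 ± 11626 (SD, n = 2), where straw was lower by -1.82 ± 0.32 (SE, edgeR adjusted p = 0.00016). The gene with the highest normalized count on wheat straw, 9078, had 210712, 258500 and 270468 normalized counts there and 4595, 4143 and 6220.0 on maltose. Its log2 fold change was 5.60 ± 0.53 (SE, edgeR adjusted p = 9.5e-08). Directly against aspen and pine it was -0.56 ± 0.44 and 0.34 ± 0.43 (SE, edgeR adjusted p = 0.35 and 0.56), and 3.43 ± 0.48 against xylan-galactomannan (SE, edgeR adjusted p = 1.5e-05).

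None of the 562 genes that fell is in the tables, so their functions were not analysed here. The largest fall was that of protein ID 7524, which ranked 14 of all genes on maltose, at 35075, 24661 and 39079 normalized counts. On straw it had 406 in wheat straw 1, 9.80 in wheat straw 2 and 1.67 in wheat straw 3. The groups were far apart, but the straw libraries differed widely among themselves. The log2 fold change was -7.92 ± 1.30 (SE, edgeR adjusted p = 7e-05), and without wheat straw 1 the fitted value was -12.51, on 11 and 2 raw counts in the other straw libraries. With all libraries it was not called against aspen (-0.97 ± 1.04, SE, edgeR adjusted p = 0.52) or pine (-0.71 ± 1.05, SE, edgeR adjusted p = 0.61). Without wheat straw 1 it was called lower on straw in both, at -5.57 and -5.31. The straw libraries differed by over 4 times in 14 of the 562 lower genes and in 2 of the 873 higher genes, against 22 of all 9162 genes tested.

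Protein ID 80 was chosen for its high level on maltose among the genes that fell without overlap between the groups, and had rank 3 there. It had 42146, 32789 and 67929.9 normalized counts on maltose and 7331, 5149 and 4708 on straw. The absence of overlap was a condition of choosing it. The log2 fold change was -3.08 ± 0.25 (SE, edgeR adjusted p = 1.2e-08). Wheat straw was also lower than xylan-galactomannan (-2.26 ± 0.24), Avicel (-1.37 ± 0.26) and pine (-1.37 ± 0.24), with edgeR adjusted p values of 7.7e-07, 0.00031 and 0.00023. It was higher than aspen by 1.10 ± 0.23 (SE, edgeR adjusted p = 0.0017), a call that was lost without wheat straw 1 (0.89).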

How the data were processed

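Read counts per gene model were deposited for 17 libraries (poly-A RNA, paired-end Illumina reads), which the authors aligned with TopHat2 and counted with HTSeq, per the labels. How reads of several loci or of either strand were counted is not given in the sources used here. Values of near-identical copies and of overlapping genes are therefore uncertain. The second table holds a normalized signal that the authors made by dividing these counts by DESeq2 size factors, on a linear scale. Counts were tested with edgeR 4.0.16 (R 4.3.3): filterByExpr left 9162 of 10442 gene models, scaling was by TMM, and all 17 libraries entered a quasi-likelihood fit with medium as the single factor. Standard errors were derived from each fold change and the square root of its F statistic. DESeq2 1.42.0 was an alternative. The thresholds on adjusted p and fold change follow the study, which also names Bonferroni correction, used here as an alternative. The level threshold, which the study set on means of gene clusters, was applied to single genes. Tests are 2-sided. The code was checked on counts simulated for the wheat straw and maltose libraries alone, with the same spread for every gene. That check does not cover the fit of all 17 libraries or a library that stands apart, as wheat straw 1 does.

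The labels and the study describe cultures in triplicate, and the replicates were treated as independent. Deviations of same-numbered straw and maltose libraries correlated with r = 0.15, 0.02 and 0.05, and those of other numbers with r from -0.11 to 0.06. So few pairs cannot settle whether the numbers mark a shared batch, and the main fit used no pairing. Function lists group the study's annotation by CAZyme family, KOG and EC codes. Codes of 1 gene can disagree, and the CAZyme family was used first and KOG next. Enzyme names are the general meaning of these codes. Members and lists were chosen with earlier results of these data known. Named with a value for each library were the 4 members with the largest change in each list of function or secretion, and 4 genes outside the study's tables. These were taken from genes called with no overlap between the groups: the largest rise, the largest fall, the highest level on wheat straw of those that rose and the highest level on maltose of those that fell. Other members of the lists were named for their role. Genes are given by protein ID, since 0 of them were found in the RefSeq gene table, and no sequences or coordinates are given.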

Additional observations from a re-analysis of the deposited data

How the results depend on the processing

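All alternatives were chosen with earlier results of these data known. RLE or upper-quartile scaling, DESeq2, no filter on low counts, a fit of only the 6 libraries and Bonferroni adjustment left the counts of called genes within 1.5 times. The threshold on fold change moved them: without it 4463 genes were changed, 2066 higher and 2397 lower, and 143 fell below the level of 12 from above it. A glmTreat test against a log2 fold change of 1 gave 821 changed genes, 543 higher and 278 lower. A level of 13 in place of 12 gave 75 genes higher and past it only on wheat straw and 43 lower and past it only on maltose. Leaving out 1 library gave 1415 to 1449 changed genes, 868 to 889 higher and 536 to 581 lower. A fit with the replicate number as a block gave 877 higher and 563 lower genes. Not every library correlated best with its own number, and against maltose the block changed no call of a gene named above except those of 6014 (0.99) and 1305 (1.00), which were lost. Of 2205 recomputed fold changes of 147 genes against maltose, 2078 stayed on the same side of the call with the same sign, 71 lost the call, 56 gained it and 0 turned. Against the 4 other media these numbers were 7894 of 8232, 157, 181 and 0. The fit of only wheat straw and maltose cannot give values for the other media. With Bonferroni adjustment 7524, 3421, 8078 and 350, among the genes given library by library, were not called.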
